A study of Rattus norvegicus with 9 samples.

Results

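Respiratory chain genes were followed by complex and by genome in the vestibular epithelium of rats exposed to IDPN (3,3'-iminodipropionitrile), a compound toxic to vestibular hair cells (HCs). The members were protein-coding genes with symbols of the families Mt-nd, Mt-cyb, Mt-co, Mt-atp, Nduf, Sdh, Uqcr, Cyc1, Cox4 to Cox8 and Atp5, with at least 10 counts in total over the 9 libraries. Of the 112 symbols that matched, 3 entries (Cox8c, Cox7b2 and Cox6c-ps1) had no counts, which left 109 members of the 32883 genes in the table. They comprised 13 mitochondrially encoded genes and 96 nuclear genes, and the latter comprised 85 subunits, 10 assembly factors and 1 inhibitor. By complex there were 52 members in complex I, 4 in complex II, 11 in complex III, 22 in complex IV and 20 in complex V, with Ndufa4 and its relative Ndufa4l2 counted in complex IV. All rats were male Long-Evans rats, and the labels give no age. The Control group drank plain water, and the IDPN-3wk and IDPN-7wk groups were given 20 mM IDPN in it for 3 and 7 weeks, with 3 rats and 3 libraries in each group. The control group contained rats killed at both time points and served both comparisons. It therefore matches neither exposed group in time, and time or age cannot be told apart from length of exposure. The cristae and utricles of a rat were pooled, so that 1 library is 1 rat and holds HCs, supporting cells and the tissue around them.

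The respiratory chain passes electrons from NADH (complex I) and succinate (complex II) through coenzyme Q to complex III, and from there through cytochrome c to complex IV, which reduces oxygen. Complexes I, III and IV pump protons across the inner mitochondrial membrane, and complex V, the ATP synthase, uses that gradient to make ATP. Complex II is encoded by nuclear genes alone, and the other complexes combine subunits made inside the mitochondrion from mitochondrial DNA with subunits imported from the cytosol. The mitochondrial genes are transcribed as long precursors that are cut into separate RNAs, whereas each nuclear gene has a promoter of its own. HCs and the dark cells that secrete endolymph are rich in mitochondria.

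The libraries held 31100118 to 46018385 counts. At these depths 3 counts correspond to 0.0652 to 0.0965 CPM (counts scaled by the effective library size), and intervals on counts cover counting error only. At equal depth, 15387 to 15498 genes were detected in 3 libraries (Control 3, IDPN-3wk 1 and IDPN-3wk 2) and 16834 to 17312 in the other 6, and the main results at 3 weeks are also given without those 3 libraries. Their library names are consecutive in the labels, which name no other difference. The titles also carry a number of unstated meaning, which is shared by the 3 controls, by IDPN-3wk 2 and 3, by IDPN-7wk 2 and 3, and by IDPN-3wk 1 and IDPN-7wk 1. Several cell type markers moved with the exposure. A gene was called where its fold change was over 1.5 at an edgeR adjusted p below 0.05. For comparison with the marker lists, 1.21% of all genes tested were called lower and 0.438% higher at 3 weeks against controls. At 7 weeks against controls these shares were 3.13% lower and 2% higher. The summed level of 14 HC markers was 2512 to 3038 CPM in controls, 1160 to 1531 CPM at 3 weeks and 1182 to 1318 CPM at 7 weeks. Of the 14, 6 were called lower at 3 weeks and 11 at 7 weeks. The 10 supporting cell markers summed to 14772 to 15076, 9049 to 11267 and 6229 to 8699 CPM in the same order. Of the 10, 1 was called lower at 3 weeks and 3 at 7 weeks. The 6 Schwann cell markers summed to 8552 to 10863, 6905 to 9168 and 2904 to 6185 CPM, with 2 of 6 called lower at 7 weeks. The 7 dark cell and transitional cell markers summed to 1437 to 1699, 1108 to 1215 and 757 to 1096 CPM. Of the 7, 1 was called higher at 3 weeks and 2 were called lower at 7 weeks. Not all followed the sum: Bsnd had means of 21.2, 53.8 and 33.5 CPM and Slc26a4 of 88.0, 77.9 and 92.9 CPM. The other members had lower means at 7 weeks than in controls. The 7 macrophage markers summed to 53.6 to 94.6, 40.9 to 114 and 167 to 211 CPM, with 1 of 7 called higher at 7 weeks. The 7 neuron and calyx markers summed to 111 to 129, 70.3 to 81.5 and 64.5 to 81.5 CPM, and the 5 fibroblast markers to 305 to 362, 314 to 490.5 and 279 to 399 CPM. The 4 endothelial markers summed to 187 to 196, 195 to 254 and 206 to 293 CPM, and the 3 red blood cell genes to 179 to 216, 257 to 321 and 159.9 to 235 CPM. Of these, 1 neuron and calyx marker was called lower at 3 weeks. At 7 weeks 1 neuron and calyx marker and 1 fibroblast marker were called lower, and 1 endothelial marker was called higher. No red blood cell gene was called against controls. None of the markers of these lists that the table holds was at 0 throughout. Among 5 striated muscle genes, Myh4 had 0.76 to 16.4 CPM in controls and 143 to 161 CPM at 7 weeks, while Acta1, Ckm, Tnnt3 and Mb were at or near 0. Myh4 was the only one of them tested, and it was called higher at 7 weeks. In bulk RNA, fewer cells of a type and less RNA per cell cannot be told apart, and the part of these shifts in the results on respiratory chain genes was not tested.

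The first question was whether the genes of the mitochondrial genome followed the exposure. At 7 weeks all 13 were lower than in controls, with every IDPN-7wk library below every control library, and 7 of them were called (fold change over 1.5 at an adjusted p below 0.05, edgeR quasi-likelihood test over 15517 genes). In the same comparison 3.13% of all genes tested were called lower, and 17.1% had IDPN-7wk libraries that all lay below the controls. Another 3 genes passed the adjusted p with smaller changes, so that 10 of 13 were past it, against 3.61% of all genes. The median log2 fold change of the 13 was -0.60 (range -0.88 to -0.48), beside a median of 0.01 over all genes tested.

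Each of the 3 mitochondrial genes of complex IV was called lower, with a median log2 fold change of -0.85. These genes encode the core of cytochrome c oxidase. Mt-co3 (ENSRNOG00000030700) stood at 3752, 4210 and 4417 CPM in the control libraries, at 3900, 3663 and 3653 CPM at 3 weeks, and at 1938, 2436 and 2365 CPM at 7 weeks. The 7-week libraries lay well below all others, whereas the 3-week libraries overlapped with controls. Mt-co3 fell by 45.6% at 7 weeks (log2 fold change -0.88, SE 0.10, edgeR adjusted p = 0.000926). Mt-co1, which holds the oxygen-reducing centre, measured 8872, 10632 and 9376 CPM in controls, 9668, 8989 and 7494 CPM at 3 weeks, and 3756, 6397 and 5863 CPM at 7 weeks. IDPN-7wk 1 was the lowest library and the other two lay closer to the rest. Its log2 fold change was -0.85 (SE 0.18, edgeR adjusted p = 0.0209). Mt-co2, the subunit that receives electrons from cytochrome c, measured 2876, 3138 and 2921 CPM in controls, 2603, 2213 and 2599 CPM at 3 weeks, and 1532, 1992 and 1797 CPM at 7 weeks. The 3 groups formed descending ranges that did not overlap, and the change at 7 weeks was -0.75 on the log2 scale (SE 0.11, edgeR adjusted p = 0.0032).

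**Figure D1:**
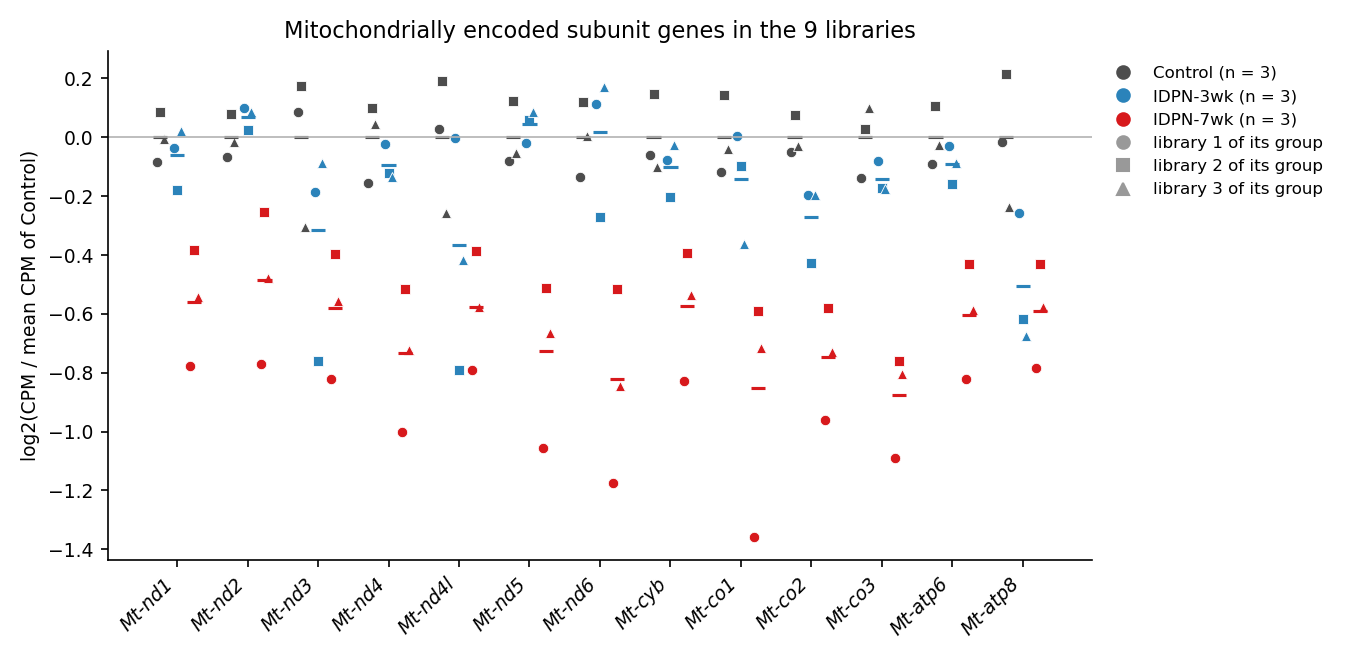
Level of each of the 13 mitochondrially encoded genes in the 9 libraries, as log2 of the CPM over the mean CPM of the 3 controls (vertical axis); colours give the group, symbols the library within its group, and short lines the group means. The 3 IDPN-7wk libraries lie below the 3 controls for every gene, and IDPN-7wk 1 is the lowest of them throughout.

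In complex I, 3 of the 7 mitochondrial genes were called lower at 7 weeks and 5 of 7 passed the adjusted p. They encode subunits of its membrane arm, which pumps protons. Mt-nd5 (ENSRNOG00000029971) measured 1081, 1243 and 1101 CPM in controls, 1127, 1191 and 1213 CPM at 3 weeks, and 549, 799.6 and 719.8 CPM at 7 weeks. The control and 3-week libraries overlapped and the 7-week libraries lay apart. The log2 fold change of Mt-nd5 at 7 weeks was -0.73 (SE 0.13, edgeR adjusted p = 0.0085). Mt-nd4 measured 4016, 4794 and 4614 CPM in controls and 2234, 3133 and 2713 CPM at 7 weeks (log2 fold change -0.73, SE 0.12, edgeR adjusted p = 0.00651). Mt-nd6, the gene on the strand opposite to the other protein genes, measured 67.0, 80.0 and 73.7 CPM in controls, 79.6, 61.0 and 82.9 CPM at 3 weeks, and 32.6, 51.4 and 40.9 CPM at 7 weeks. It too was lower in every 7-week library, by -0.82 on the log2 scale (SE 0.18, edgeR adjusted p = 0.0251). The counting is not stated to use strand, so reads of Mt-nd6 and of RNA antisense to it cannot be told apart. Mt-nd1 (log2 fold change -0.56) and Mt-nd2 (-0.48) passed the adjusted p but not the fold threshold. Mt-nd3 (-0.58) and Mt-nd4l (-0.58) did not pass, with edgeR adjusted p-values of 0.112 and 0.138. For this pair IDPN-3wk 2 was as low as the 7-week libraries, and Mt-nd4l overlaps Mt-nd4 on the mitochondrial DNA, so that their reads can be shared.

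Mt-cyb, the only mitochondrial gene of complex III, encodes cytochrome b. It measured 5974, 6901 and 5806 CPM in controls, 5897, 5405 and 6113 CPM at 3 weeks, and 3506, 4744 and 4293 CPM at 7 weeks. Its change at 7 weeks was -0.57 on the log2 scale (SE 0.12, edgeR adjusted p = 0.0176), just under the fold threshold. In complex V, Mt-atp6, a part of the proton channel of the ATP synthase, measured 8959, 10274 and 9366 CPM in controls, 9349, 8549 and 8978 CPM at 3 weeks, and 5396, 7075 and 6347 CPM at 7 weeks. It was called lower (log2 fold change -0.60, SE 0.10, edgeR adjusted p = 0.0076). Mt-atp8, which overlaps Mt-atp6, measured 45.5, 53.4 and 39.0 CPM in controls, 38.4, 29.9 and 28.8 CPM at 3 weeks, and 26.7, 34.1 and 30.8 CPM at 7 weeks. For Mt-atp8 the 3-week and 7-week ranges overlapped and neither comparison with controls passed (edgeR adjusted p = 0.193 and 0.0843). DESeq2 called Mt-atp8 lower at 7 weeks (adjusted p = 0.0247) beside the 7 genes called by edgeR, 8 in all. Without a fold threshold 12 of the 13 passed with DESeq2, Mt-nd4l being the exception. The shares over all genes given in this text are from edgeR, and none was computed for DESeq2.

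Of the 7 calls, those of Mt-co2, Mt-co3, Mt-nd4 and Mt-nd5 held in each of 14 alternative analyses. Mt-nd6 lost its call when any control, IDPN-7wk 1 or IDPN-7wk 3 was left out (edgeR adjusted p up to 0.0966). Mt-co1 lost it without Control 2, Control 3 or IDPN-7wk 3 (up to 0.0800), and Mt-atp6 dropped under the fold threshold without Control 2 or IDPN-7wk 1. Without Control 2 the count of called genes was 4. Without the 3 libraries with fewer detected genes it was 11, and Mt-nd3, Mt-nd4l, Mt-cyb and Mt-atp8 joined. All 13 genes remained below controls in each of the 14, with no value above -0.36 on the log2 scale.

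The same difference was seen in the shares of library counts. Mitochondrially encoded protein genes took 4.71%, 5.48% and 4.74% of the counts in the control libraries, 4.91%, 4.43% and 4.76% at 3 weeks, and 2.85%, 3.93% and 3.54% at 7 weeks. The 7-week share was 0.691 times that of controls, and the 3-week share was 0.944 times. Nuclear members took 1.02%, 0.987% and 0.947% in controls, and 1.08%, 1.07% and 1.06% at 7 weeks, or 1.08 times controls. Every 7-week library thus lay above every control for nuclear members. These are shares of raw counts, whereas CPM are scaled by the effective library size. Mitochondrial ribosomal RNA, which was counted although the libraries were primed with oligo-dT, took 4.63%, 4.51% and 5.69% in controls, 6.19%, 5.79% and 4.51% at 3 weeks, and 2.79%, 3.37% and 3.24% at 7 weeks. The 2 rRNA entries, which the table names AY172581.9 and AY172581.24, had log2 fold changes of -1.05 (SE 0.18) and -0.79 (SE 0.15) at 7 weeks, with edgeR adjusted p-values of 0.00712 and 0.0126. Both were called lower. The ratio of mitochondrial messenger to mitochondrial ribosomal counts was 1.02 ± 0.19 in controls, 0.871 ± 0.16 at 3 weeks and 1.09 ± 0.071 at 7 weeks (SD, n = 3), with overlapping ranges.

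**Figure D2:**
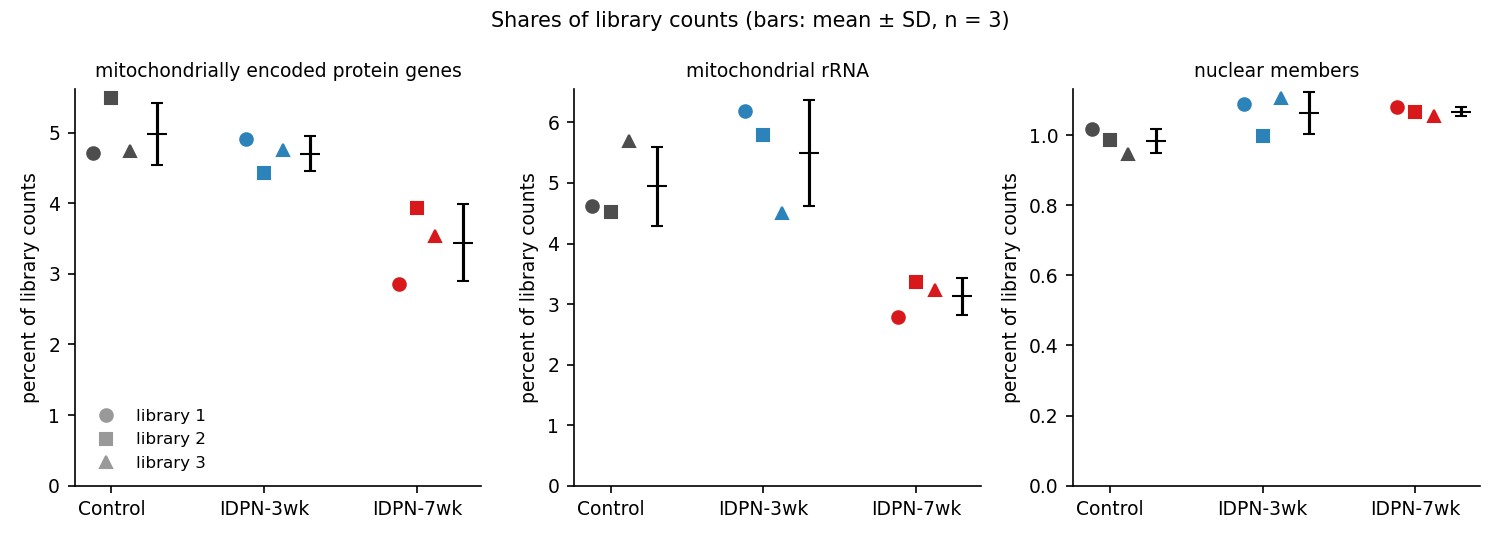
Percent of each library's counts (vertical axes, from 0) on mitochondrially encoded protein genes, mitochondrial rRNA and nuclear members in the 3 groups; symbols are libraries and bars give the mean ± SD (n = 3). The first 2 shares are lower in all 3 IDPN-7wk libraries than in any other library, and the share of nuclear members is not.

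The nuclear genes of the same complexes gave another picture. None of the 92 nuclear members tested was called at 7 weeks in either direction, where 3.13% of all genes were called lower and 2% higher. DESeq2 called none of them either, and 5 of the 92 had an unadjusted edgeR p under 0.05, of which 3 were lower and 2 higher, where 19.3% of all genes had one. The median log2 fold change of the 81 nuclear subunits tested was -0.004, with 41 below and 40 above 0. For 65 of the 81 the 95% interval of the change lay within a fold change of 1.5 in both directions, so that changes of the size seen in Mt-co3 lay outside it. Every nuclear member had a log2 fold change above -0.44, whereas no mitochondrial gene was above -0.48. The 4 members left out by the filter on low counts were Cox6a2, Cox8b and the lower entries of Ndufa10l1 and Ndufv3.

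**Figure D3:**
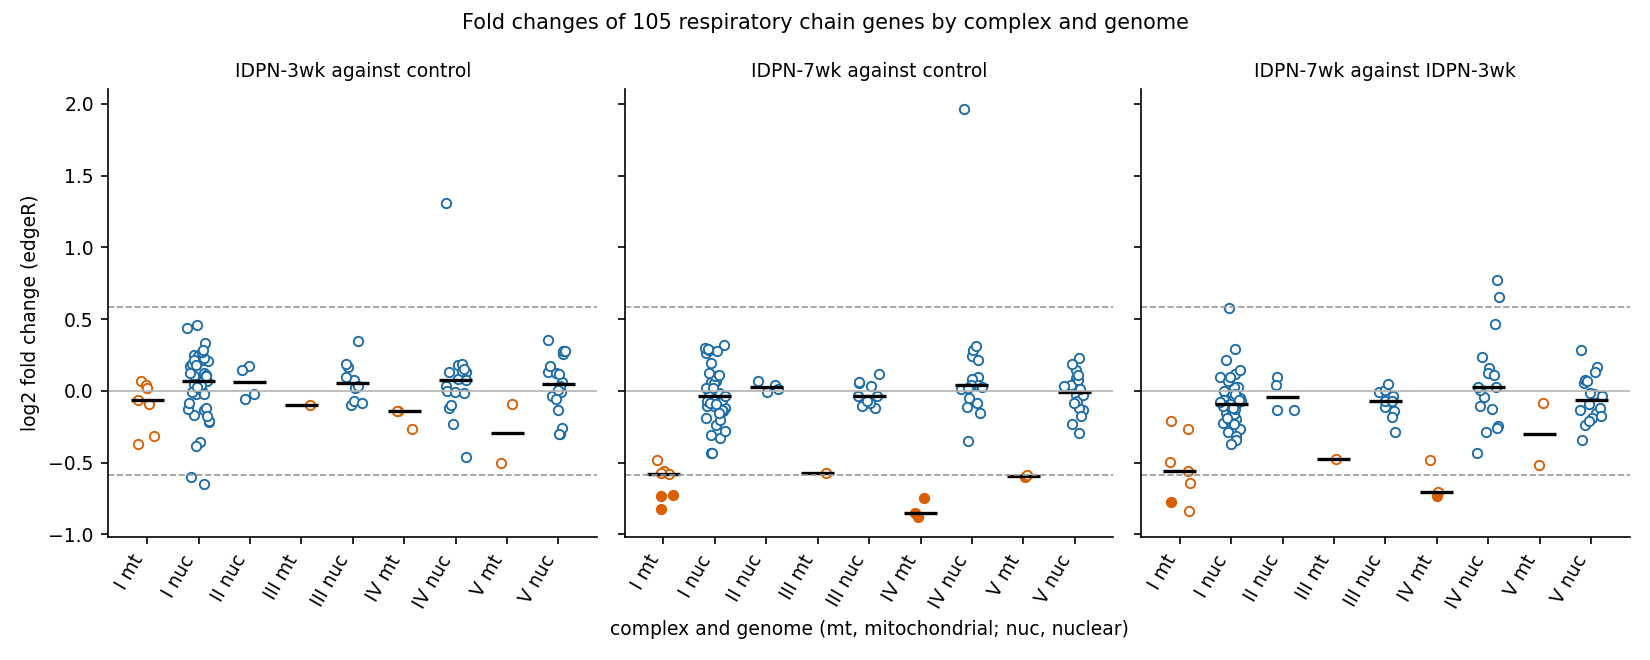
Log2 fold change (edgeR, vertical axis) of the 105 members tested, by complex and genome (horizontal axis), in the 3 comparisons; each circle is a gene, filled where called, black lines are medians and dashed lines mark a fold change of 1.5. Between IDPN-7wk and controls every mitochondrial gene (mt) lies below all nuclear genes (nuc), between IDPN-7wk and IDPN-3wk the 2 genomes overlap in complexes I and V, and the filled circles are all mitochondrial.

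Complex I had the most nuclear subunits, 35 of them tested, with a median log2 fold change of -0.03 at 7 weeks and 0.10 at 3 weeks. Ndufs4, an accessory subunit needed for a stable NADH-binding module, measured 176, 188 and 199 CPM in controls, 165, 182 and 171 CPM at 3 weeks, and 148, 148 and 158 CPM at 7 weeks. All 7-week libraries lay below the controls, but the change was small (log2 fold change -0.31, SE 0.09) and did not pass the adjusted threshold (edgeR adjusted p = 0.0662, the smallest among nuclear members at 7 weeks). The accessory subunit Ndufb2 measured 42.5, 39.6 and 41.2 CPM in controls and 29.5, 29.9 and 31.9 CPM at 7 weeks (log2 fold change -0.43, edgeR adjusted p = 0.0933). On the other side, Ndufb4 measured 72.6, 69.3 and 75.3 CPM in controls and 89.9, 86.4 and 91.2 CPM at 7 weeks (log2 fold change 0.30, edgeR adjusted p = 0.144). With DESeq2, Ndufs4 and Ndufb2, together with Ndufs8, passed the adjusted p, and none of these 3 reached the fold threshold.

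Complex II has no mitochondrial gene and serves as a contrast. Sdha, its flavoprotein and its member with the most counts, measured 381, 359.6 and 379 CPM in controls, 369.8, 465 and 427 CPM at 3 weeks, and 381, 380.1 and 389.6 CPM at 7 weeks. Its 3-week libraries were more scattered than the others and its groups overlapped in each comparison. The log2 fold changes of its 4 genes ran from -0.01 to 0.07 at 7 weeks, and all 4 intervals lay within a fold change of 1.5. Its membrane anchors Sdhc and Sdhd stood at 0.07 and -0.01. In complex III, the core protein Uqcrc1 measured 261, 250.1 and 307 CPM in controls, 292, 279.6 and 303 CPM at 3 weeks, and 259, 273 and 241 CPM at 7 weeks. Both exposed groups overlapped with controls, and every 7-week library lay below every 3-week library. The 10 nuclear subunits of complex III spanned -0.12 to 0.12 on the log2 scale at 7 weeks. Both ends of that range were entries of Uqcrb, and the small subunits Uqcr11 and Uqcrq stood at -0.11 and -0.04.

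In complex IV, the nuclear subunits tested had a median log2 fold change of 0.04 at 7 weeks, against -0.85 for its mitochondrial genes. Cox4i1, the regulatory subunit present in most tissues, measured 215, 195 and 233 CPM in controls, 246, 243 and 238 CPM at 3 weeks, and 197, 205 and 204 CPM at 7 weeks. Its 7-week libraries lay within the control range, with a log2 fold change of -0.08 (95% interval -0.27 to 0.11). Cox8a measured 315, 311 and 255 CPM in controls, 305, 259.6 and 313 CPM at 3 weeks, and 284, 310.4 and 298 CPM at 7 weeks, with a log2 fold change of 0.02 (95% interval -0.22 to 0.26). In complex V, the catalytic subunit Atp5f1b measured 1401, 1324 and 1481 CPM in controls, 1497, 1591 and 1488 CPM at 3 weeks, and 1349, 1269 and 1262 CPM at 7 weeks. The 3-week libraries were the highest, and the 7-week libraries overlapped with controls. The nuclear subunits of complex V had a median of -0.009 on the log2 scale at 7 weeks. Atp5f1e, of the central stalk, and Atp5pf, of the outer stalk, stood at -0.30 and -0.23 with every 7-week library below the controls (edgeR adjusted p = 0.355 and 0.285), and the ring subunit Atp5mc3 stood at 0.15. Atp5if1, the inhibitor that stops the ATP synthase from running backwards, measured 80.7, 76.2 and 68.2 CPM in controls and 90.03, 90.2 and 84.2 CPM at 7 weeks (log2 fold change 0.23, edgeR adjusted p = 0.272).

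Summed over each complex, the 2 genomes separated at 7 weeks. The nuclear subunits of complex I summed to 3059, 2909 and 2901 CPM in controls and 2860, 2883 and 2838 CPM at 7 weeks, or 0.967 times the control mean. The mitochondrial genes of complex I summed to 17777, 20198 and 18844 CPM in controls and 10549, 14478 and 12707 CPM at 7 weeks, or 0.664 times. For complex III the nuclear sum was 0.983 times and the mitochondrial sum 0.671 times the control mean. Complex IV showed 1.03 times for the nuclear and 0.559 times for the mitochondrial sum, and complex V showed 0.981 and 0.658 times. The nuclear sum of complex II was 1.03 times the control mean. The ratio of summed mitochondrial to summed nuclear subunit CPM was 5.29 ± 0.49 in controls, 4.61 ± 0.11 at 3 weeks and 3.37 ± 0.56 at 7 weeks (SD, n = 3). In single libraries it was 4.82, 5.80 and 5.23 in controls, 4.70, 4.65 and 4.48 at 3 weeks, and 2.75, 3.84 and 3.50 at 7 weeks, so the 3 ranges did not overlap. With 3 rats against 3, an exact permutation test cannot go below p = 0.1, and no test was made of these sums. Leaving out any 1 library kept the 7-week mitochondrial share between 0.642 and 0.750 times that of controls.

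**Figure D4:**
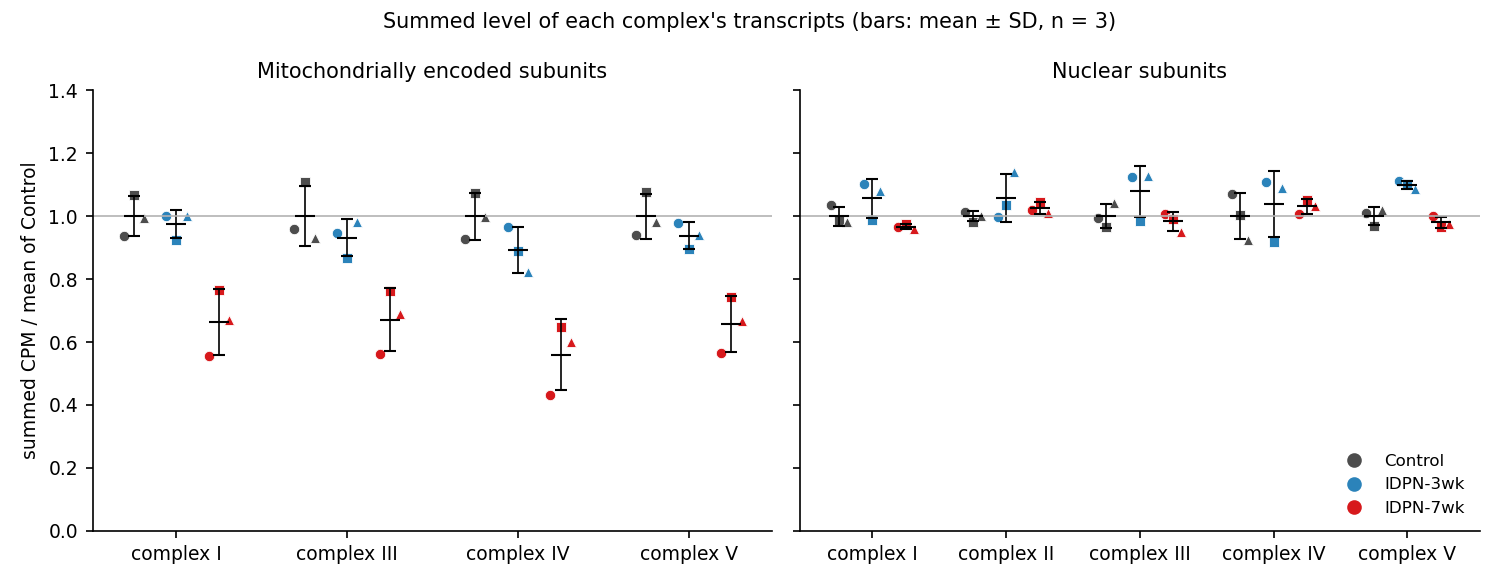
Summed CPM of the mitochondrially encoded subunits (left) and the nuclear subunits (right) of each complex, divided by the mean of the 3 controls (vertical axis, from 0); circles, squares and triangles are libraries 1, 2 and 3 of a group, and bars give the mean ± SD (n = 3). At 7 weeks the mitochondrial sums stand at 0.559 to 0.671 of the control mean and the nuclear sums at 0.967 to 1.03.

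At 3 weeks no member was called in either direction, while 1.21% of all genes were called lower and 0.438% higher. Of the 13 mitochondrial genes, 2 had an unadjusted edgeR p under 0.05 (Mt-co2 and Mt-atp8, both lower), and of the 92 nuclear members 13 did, of which 11 were higher and 2 lower. Over all genes 15.8% had such a p, and 7.12% had one and were higher. DESeq2 called none. The median log2 fold change was -0.10 for the mitochondrial genes and 0.07 for the nuclear subunits. With 1 library left out, the first ran from -0.17 (without Control 1) to -0.04 (without Control 2) and the second from 0.008 (without IDPN-3wk 1) to 0.13 (without IDPN-3wk 2). Without the 3 libraries with fewer detected genes the medians were -0.11 and 0.11 and no member was called, in a comparison of IDPN-3wk 3 alone with 2 controls, where the lone library is assumed to vary as the other groups do. Atp5po, the stalk subunit that confers sensitivity to oligomycin, had the smallest adjusted p of the nuclear members. It measured 191, 198.8 and 195 CPM in controls, 262, 258 and 227 CPM at 3 weeks, and 196.6, 197.8 and 195 CPM at 7 weeks. All 3-week libraries lay above the rest, with a log2 fold change of 0.35 (SE 0.08, edgeR adjusted p = 0.0648), or 0.22 (edgeR adjusted p = 0.393) without the 3 libraries. Uqcrfs1, the iron-sulphur protein of complex III, measured 140.2, 127 and 147 CPM in controls, 179, 178 and 170.4 CPM at 3 weeks, and 155, 142 and 136 CPM at 7 weeks. Its 3-week libraries also lay above the rest, without passing (log2 fold change 0.35, edgeR adjusted p = 0.0949, and 0.35 with an adjusted p of 0.255 without the 3 libraries). In complex I, Ndufa2 measured 35.2, 33.8 and 28.9 CPM in controls, 49.7, 39.7 and 43.4 CPM at 3 weeks, and 41.2, 39.4 and 38.5 CPM at 7 weeks (log2 fold change 0.44, edgeR adjusted p = 0.154 at 3 weeks, and 0.33 with an adjusted p of 0.315 without the 3 libraries). With DESeq2 and no fold threshold 6 nuclear members were higher at 3 weeks (Atp5f1a, Atp5pb, Atp5po, Ndufa2, Ndufa9 and Uqcrfs1). The share of all genes that passed with DESeq2 was not computed, so this count has no background beside it. The nuclear sum of complex V was 3585, 3430 and 3616 CPM in controls, 3942, 3902 and 3854 CPM at 3 weeks, and 3549, 3428 and 3451 CPM at 7 weeks. The 3-week libraries were the highest, at 1.10 times the control mean with all libraries and also without those 3. Of the 3-week libraries, 2 belong to those with fewer detected genes, and IDPN-3wk 2 was the lowest of its group for 62 of the 81 nuclear subunits. Without IDPN-3wk 2 the nuclear sums at 3 weeks were 1.09 in place of 1.06 times controls for complex I, 1.13 in place of 1.08 for complex III and 1.10 in place of 1.04 for complex IV.

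The 7-week group was compared with the 3-week group directly, because both share their controls. These groups were killed at different time points, so time or age cannot be told apart from length of exposure here. All 13 mitochondrial genes were again below 0, with a median log2 fold change of -0.51 (range -0.84 to -0.08) beside 0.01 over all genes. Mt-co3 (-0.73, SE 0.10, edgeR adjusted p = 0.0118) and Mt-nd5 (-0.77, SE 0.13, edgeR adjusted p = 0.0310) were called lower, in a comparison where 0.135% of all genes were called lower and 0.348% higher. For 10 of the 13 genes every 7-week library lay below every 3-week library, which held for 8.92% of all genes. The others were Mt-nd3, Mt-nd4l and Mt-atp8. The 3-week libraries of Mt-nd3 and Mt-nd4l were spread widely. Those of Mt-atp8 all lay below controls, and its log2 fold change against controls was -0.50 at 3 weeks and -0.59 at 7 weeks. DESeq2 called 5 (Mt-co3, Mt-nd5, Mt-nd4, Mt-nd6 and Mt-co1), and its share over all genes was not computed. Without the 3 libraries with fewer detected genes, which leaves IDPN-3wk 3 as the only 3-week library, neither call held (edgeR adjusted p = 0.134 for Mt-co3 and 0.146 for Mt-nd5), although the log2 fold changes were -0.71 and -0.82. With membership of these 3 libraries as a covariate both calls were lost as well (edgeR adjusted p = 0.110 and 0.139). The call of Mt-nd5 was also lost with only the 2 groups fitted (edgeR adjusted p = 0.103) and without IDPN-3wk 1, IDPN-3wk 2 or IDPN-7wk 3 (up to 0.121). None of the 92 nuclear members was called in either direction by edgeR or DESeq2, and 12 had an unadjusted edgeR p under 0.05, all of them lower, where 13.8% of all genes had one and 7.46% had one and were lower. These included Atp5po (log2 fold change -0.34, edgeR adjusted p = 0.119), Ndufa9 (-0.26, 0.196) and Cox4i1 (-0.26, 0.219). The median over nuclear subunits was -0.07.

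Several subunits of complex IV exist in isoforms that replace each other by tissue or oxygen supply. The widely used forms Cox4i1, Cox5b, Cox6a1, the main entry of Cox6b1, Cox7b, Cox8a and Ndufa4 had log2 fold changes between -0.08 and 0.22 at 7 weeks. Cox4i2, a form found in lung and raised at low oxygen, measured 8.14, 10.4 and 10.1 CPM in controls, 6.51, 12.996 and 10.8 CPM at 3 weeks, and 5.74, 8.04 and 8.71 CPM at 7 weeks, and its groups overlapped. The muscle form Cox7a1 measured 2.40, 2.79 and 2.59 CPM in controls and 1.51, 2.94 and 2.53 CPM at 7 weeks. The muscle forms Cox6a2 and Cox8b did not exceed 0.31 CPM in any library. Ndufa4l2, a relative of Ndufa4 known to rise at low oxygen, measured 2.10, 2.76 and 2.00 CPM in controls, 1.77, 1.48 and 1.72 CPM at 3 weeks, and 1.91, 3.19 and 3.42 CPM at 7 weeks (edgeR adjusted p = 0.804 against controls). Cox6b2, a testis form, was the nuclear member with the highest fitted change at 7 weeks. It measured 0.35, 0.13 and 0.25 CPM in controls, 0.74, 0.47 and 0.61 CPM at 3 weeks, and 0.86, 1.34 and 0.68 CPM at 7 weeks. The groups at 3 and 7 weeks lay above controls without passing (log2 fold change 1.96, SE 0.83, edgeR adjusted p = 0.231 at 7 weeks). Near-identical copies of nuclear subunit genes are common, and the entries that share a symbol (8 in all, for Cox6b1, Uqcrb, Ndufa10l1 and Ndufv3) are uncertain for that reason.

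The 10 assembly factors among the members had a median log2 fold change of -0.11 at 7 weeks and -0.08 at 3 weeks, with none called by edgeR and with 0 and 1 of them at an unadjusted p under 0.05. Ndufaf1, which helps to build the membrane arm of complex I, measured 9.90, 9.77 and 10.6 CPM in controls, 4.47, 6.30 and 9.19 CPM at 3 weeks, and 10.6, 10.1 and 9.09 CPM at 7 weeks. Its 2 lowest libraries were the 3-week libraries with fewer detected genes. The supercomplex factor Cox7a2l measured 147, 159.6 and 159 CPM in controls and 144, 138 and 149 CPM at 7 weeks. Outside the member rule, 40 more assembly factors were tested and none was called in any comparison by edgeR, with 4, 0 and 3 at an unadjusted p under 0.05 at 3 weeks, at 7 weeks and between the times, and a median of 0.005 at 7 weeks. Over all genes tested, 15.8%, 19.3% and 13.8% had such a p in the same order. The 27 genes that replicate, transcribe, process and translate the mitochondrial genome, among them Tfam and Polrmt, had a median of 0.11 at 7 weeks, with none called in any comparison and 2, 1 and 1 at an unadjusted edgeR p under 0.05 in the same order. Of 16 genes of the citrate cycle edgeR called none in any comparison, with 0, 1 and 1 at an unadjusted p under 0.05, and their median was 0.02 at 7 weeks. Among 26 genes of coenzyme Q, cytochrome c and the carriers of the inner and outer membranes, Ucp2, an uncoupling protein, was called higher at 7 weeks (log2 fold change 0.68, SE 0.10, edgeR adjusted p = 0.00338). Of all genes tested, 2% were called higher and 3.13% lower at 7 weeks. Among 16 genes of glycolysis, Aldoc, the aldolase of neural tissue, was called lower at 7 weeks (log2 fold change -0.83, SE 0.17, edgeR adjusted p = 0.0193), and Tpi1, Pfkm and Ldhb passed the adjusted p with smaller changes. These 4 of 16 genes were lower, and 3.61% of all genes passed the adjusted p and were lower. The glycolysis list had a median of -0.17 at 7 weeks and 0.03 at 3 weeks.

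The spread among rats differed between the genomes. For the mitochondrial genes the median coefficient of variation within a group was 8.84% in controls, 7.03% at 3 weeks and 14.6% at 7 weeks, and for the nuclear members it was 7.78%, 11.6% and 3.97%. At 7 weeks the mitochondrial genes varied together: the median log2 level relative to the control mean was -0.83 in IDPN-7wk 1, -0.43 in IDPN-7wk 2 and -0.59 in IDPN-7wk 3. The same median over the nuclear subunits was -0.03, 0.03 and -0.03 in those libraries. Without IDPN-7wk 1 the median change of the mitochondrial genes at 7 weeks was -0.51, and without Control 3 it was -0.71.

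The promoters of the nuclear genes were searched for sequence features that the choice of members did not use. Of 92 symbols of nuclear members, 80 had a promoter in the RefSeq table of the GRCr8 assembly, 4 of them through a synonym; each promoter runs from 250 bases before to 50 bases after the gene's start. The letters of 4 motifs were searched on both strands: GCGCANGCG for NRF1 and CCGGAAG for ETS factors such as GABP, which are known regulators of nuclear respiratory genes, AAGATGGCG for YY1, and TATAAA for the TATA box. The NRF1 letters were in 19 of the 80 promoters (23.8%) and in 5.8% of all 33469 promoters. That background was not limited by gene type or by expression in this tissue, whereas the members are protein-coding genes with counts. The ETS letters were in 27.5% and 8.75%, the YY1 letters in 12.5% and 1.73%, and the TATA letters in 8.75% and 14.2%, respectively. By complex, the NRF1 letters were in 8 of 31 nuclear subunits of complex I, 1 of 4 of complex II, 1 of 6 of complex III, 0 of 14 of complex IV and 6 of 15 of complex V. At 7 weeks the median log2 fold change was -0.02 for the 38 subunits with NRF1, ETS or YY1 letters and 0.03 for the 30 without. A match is a description of the sequence and not a binding site. The promoters below belong to the nuclear subunit of each complex with the most counts among those with NRF1, ETS or YY1 letters, and they show how differently the matches are placed. Lower case gives the sequence from 5′ to 3′ on the gene's strand, and capitals mark the matches. Ndufs4 lies on the minus strand at chr2:47794865-47795164 (YY1), Sdha on the plus strand at chr1:30764303-30764602 (NRF1, 3 matches), Uqcrc1 on the plus strand at chr8:118467973-118468272 (NRF1, 2 matches, and YY1), Cox8a on the minus strand at chr1:213833574-213833873 (ETS, 2 matches) and Atp5f1a on the plus strand at chr18:73567287-73567586 (ETS).
Ndufs4: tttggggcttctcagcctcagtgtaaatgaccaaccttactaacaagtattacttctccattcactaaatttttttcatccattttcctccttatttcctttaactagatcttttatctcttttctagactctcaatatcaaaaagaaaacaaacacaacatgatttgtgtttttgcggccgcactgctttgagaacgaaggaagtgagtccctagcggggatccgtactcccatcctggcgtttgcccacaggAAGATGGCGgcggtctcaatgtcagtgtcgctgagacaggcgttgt
Sdha: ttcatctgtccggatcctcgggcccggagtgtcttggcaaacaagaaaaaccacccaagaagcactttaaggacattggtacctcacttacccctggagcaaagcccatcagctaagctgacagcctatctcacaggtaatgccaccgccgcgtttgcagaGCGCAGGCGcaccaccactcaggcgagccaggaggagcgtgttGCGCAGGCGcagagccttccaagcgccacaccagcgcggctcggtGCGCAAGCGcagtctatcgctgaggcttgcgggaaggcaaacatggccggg
Uqcrc1: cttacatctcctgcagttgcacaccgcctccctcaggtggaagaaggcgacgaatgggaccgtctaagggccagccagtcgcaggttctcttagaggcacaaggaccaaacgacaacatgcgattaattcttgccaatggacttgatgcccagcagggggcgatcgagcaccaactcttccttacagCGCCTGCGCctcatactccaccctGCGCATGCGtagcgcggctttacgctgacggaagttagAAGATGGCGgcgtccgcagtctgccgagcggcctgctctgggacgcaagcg
Cox8a: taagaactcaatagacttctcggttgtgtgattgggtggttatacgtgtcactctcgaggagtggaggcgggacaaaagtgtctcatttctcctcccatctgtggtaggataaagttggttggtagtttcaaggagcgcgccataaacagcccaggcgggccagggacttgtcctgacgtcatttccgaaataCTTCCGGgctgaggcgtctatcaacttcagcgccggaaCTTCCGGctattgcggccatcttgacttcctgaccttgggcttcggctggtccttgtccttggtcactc
Atp5f1a: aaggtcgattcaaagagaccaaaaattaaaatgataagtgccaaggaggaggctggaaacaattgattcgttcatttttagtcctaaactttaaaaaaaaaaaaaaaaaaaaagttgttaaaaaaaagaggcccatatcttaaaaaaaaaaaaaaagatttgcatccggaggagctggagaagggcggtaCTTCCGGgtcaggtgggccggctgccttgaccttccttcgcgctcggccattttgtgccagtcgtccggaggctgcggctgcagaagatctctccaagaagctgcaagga
The YY1 letters begin 5 bases after the start site in Ndufs4 and 1 base before it in Uqcrc1, and the NRF1 letters of Sdha begin 89, 46 and 1 bases before it. None of these 5 genes was called in any comparison.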

How the data were processed

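RNA from the pooled cristae and utricles of 9 rats was sequenced in SMARTseq2 libraries, which start from oligo-dT priming and carry no molecular identifiers. The authors mapped the reads to the Rnor6.0 genome with STAR 2.5.3a and quantified genes with RSEM (version 1.3.0 per the submitters' processing notes). The deposited values are expected counts per gene from RSEM, given as whole numbers with no normalization; how reads shared between similar genes were divided, and whether strand was used, is not given in the sources used here. Groups came from the labels, and libraries were numbered within a group by accession order. The labels give all libraries the same batch. Each library is 1 rat, and p-values measure the spread between these rats.

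The counts were analysed in R 4.3.3 with edgeR 4.0.16 (limma 3.58.1): genes kept by filterByExpr (15517), TMM factors, 1 robust quasi-likelihood model over all 9 libraries in which every group has its own mean, and Benjamini-Hochberg adjustment over all genes tested in each comparison. A call needed a fold change over 1.5 and an adjusted p below 0.05. CPM use the TMM factors and are not divided by gene length, so levels are compared between libraries and not between genes. Alternatives were DESeq2 1.42.0, size factors by relative log expression, no filter, at least 10 counts in every library, no fold threshold, mitochondrially encoded genes removed before normalization, the library set with fewer detected genes as a covariate, only the 2 groups compared, and each library left out. Added after the data were seen were size factors from nuclear genes, DESeq2 with no fold threshold and the removal of the 3 libraries with fewer detected genes. The pipeline was tested on simulated counts. No replicate pair agreed within sampling noise.

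The members, the gene lists and the markers were chosen with earlier results of these data known. Genes were named as follows: the 13 mitochondrially encoded genes; members called in any comparison; in each complex the nuclear member with the most counts and, in each comparison, the higher and the lower member with the smallest p; the isoforms of complex IV and their partners; and called genes of the other lists, to which Tpi1, Pfkm, Ldhb, Ndufs8, Tfam, Polrmt and the genes found by DESeq2 alone were added after their values were seen. Coordinates are those of GRCr8 in the RefSeq promoter table and were not converted to Rnor6.0. Listed genes that the table does not hold under their symbols (Coa1, Surf1, Sco2, Pet117, Prorp, Ogdh and Gapdh) were not analysed here. The same holds for the markers Ocm, Pecam1, Myh1, Myh2, Hba1, Hba2 and Hba-a1. A result that the rule for named genes covers is not reported here.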

Additional observations from a re-analysis of the deposited data

Results flagged for a closer look

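The effects at 3 and 7 weeks share their controls, and their difference was tested directly as IDPN-7wk against IDPN-3wk. Among the 105 members tested it was past the threshold for Mt-co3 (log2 fold change -0.73, edgeR adjusted p = 0.0118) and Mt-nd5 (log2 fold change -0.77, edgeR adjusted p = 0.0310), both lower at 7 weeks in 3 of 3 libraries against all 3 libraries at 3 weeks. Neither call held in all 14 alternatives: both were lost with the library set as a covariate and without the 3 libraries with fewer detected genes, and that of Mt-nd5 was lost in 6 of the 14. With groups of 3 libraries no search for outlying samples was made.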

How the results depend on the processing

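The counts of members called changed by over 1.5 times under these settings; the cause was not tested except where fewer libraries entered. DESeq2 gave 5 in place of 2 lower at 7 against 3 weeks. With no fold threshold DESeq2 gave 6 higher in place of 0 at 3 weeks, 15 lower in place of 7 at 7 weeks, and 14 lower in place of 2 between the times. No share over all genes was computed for DESeq2. The library set as a covariate left 0 lower between the times, as did the removal of the 3 libraries with fewer detected genes, which raised the count at 7 weeks to 11. Only the 2 groups compared gave 1 between the times. With each library left out in turn, the called lower counts ran from 4 (without Control 2) to 10 (without IDPN-7wk 2) at 7 weeks and from 1 to 5 between the times, and the 3-week share of mitochondrial protein genes ran from 0.919 to 0.995 times controls. The nuclear sums ran from 0.958 to 0.984 (complex I) and from 0.994 to 1.07 (complex IV) times controls at 7 weeks, and from 1.08 to 1.11 (complex V) at 3 weeks. The medians of both genomes moved by less than the spread between libraries under each setting tried, and that of the mitochondrial genes at 7 weeks stayed between -0.71 and -0.51. With mitochondrially encoded genes removed before normalization, 0 nuclear members were called in each comparison, and with size factors from nuclear genes the counts were 7 at 7 weeks and 2 between the times. Of 1572 values of named nuclear genes under the alternatives, none was called and 108 had the other sign. Without the 3 libraries the nuclear sums were 0.958 (complex I) and 0.994 (complex IV) times controls at 7 weeks and 1.14 (complex II) at 3 weeks. No paired analysis was possible because the groups share fewer than 2 title numbers (1 number joins IDPN-3wk 1 and IDPN-7wk 1). Depth limits the lowest isoforms, such as Cox6b2 near 1 CPM.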
